A study of Mus musculus with 9 samples.

Results

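Genes of glucose uptake, glycolysis, glycogen and pyruvate handling were followed in the hearts of 9 NSG mice. The group of genes was defined by 50 gene symbols, and 48 of them were found among the 13890 genes counted. All 48 passed the filter on low counts, together with 13364 genes in all. Aldoc and Eno1 were not analysed here. NSG (NOD scid gamma) mice are an immunodeficient strain that accepts human cells, and every animal was a male that was 8 weeks old at surgery. The sham group (S, animals 2, 3 and 5) was given saline in the spleen. By their labels, the tumour hosts (T, animals 11, 12 and 15) were given HCT116 cells, a human colorectal cancer line that spreads from the spleen to the liver. The hosts of the last group (A + T, animals 20, 21 and 22) were given the same cells and weekly ACVR2B/Fc, a soluble receptor coupled to an antibody Fc fragment that captures activins, myostatin and related ligands. Hearts were collected approximately 3 weeks after surgery, and the RNA of all of them was isolated and sequenced at the same time. By the labels, the comparison of T with S addresses the heart of a tumour host, and the comparisons with A + T address blockade of ACVR2B ligands in such a host. The first of these readings, and with it that of A + T vs. T, was not settled, for the reason given with the libraries below.

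Glucose enters the heart muscle cell through the transporters Glut1 (Slc2a1) and Glut4 (Slc2a4), is phosphorylated by hexokinase and is then either stored as glycogen, passed to the pentose phosphate pathway or split by glycolysis into pyruvate. Pyruvate is exchanged with lactate or enters the mitochondrion, where the pyruvate dehydrogenase (PDH) complex turns it into acetyl-CoA. PDH kinases switch this complex off and PDH phosphatases switch it on, so the balance between them sets how much glucose carbon is burned. The adult heart burns mainly fatty acids and keeps glucose as a flexible second fuel.

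Between 12392222 and 19732471 counts were available per library, of which the 48 members took between 1.89% and 2.64%. When set beside the gene list of the study, the libraries labelled T gave the fold changes listed there for mice with ACVR2B/Fc and no tumour, and not those listed for untreated hosts, so T stands below for the libraries that carry this label and the treatment behind them was not settled here. Cell type markers also moved with the groups. All 9 cardiomyocyte markers were detected, with a summed level of 79125 to 84831 CPM (counts scaled to library size) in S, 65687 to 80087 in T and 61645 to 78264 in A + T. At an adjusted P under 0.05 (edgeR), 2 of the 9 were higher in T vs. S (Tnnt2 and Pln) and 1 was lower (Actc1). Summed markers of endothelium fell from between 809.5 and 939 CPM in S to between 466 and 584 in T (5 of 6 markers lower at an adjusted P under 0.05, edgeR), and those of fibroblasts from between 1350.4 and 1554 to between 813 and 939.6 (6 of 6). In A + T, summed endothelial markers lay between 606 and 729.9 CPM, fibroblast markers between 1035 and 1509 and macrophage markers between 223 and 284, the latter against 145 to 160.2 in S. Summed mural markers fell from between 364 and 447 CPM in S to between 181 and 248 in T (5 of 5 lower), with 227 to 328 in A + T. Summed atrial markers were even in S, at 3000.1 to 3084 CPM, and uneven in T, at 861 to 4554, and in A + T, at 793 to 2055. Of these 5 markers 1 was called in T vs. S, Bmp10, with 66.1, 158 and 91.9 CPM in S hearts and 1.86, 1.13 and 1.78 in T hearts. The ribosomal RNA gene Rn45s took 4.57% to 19.6% of the counts of a library, with low and high libraries in every group. The part of these shifts in the results was not tested, and in a bulk sample fewer cells of a type cannot be told apart from less RNA per cell. Animal 22 of A + T stood apart. It gave the lowest value of all 9 libraries for 26 of the 48 members, had the lowest sum of cardiomyocyte markers and held 1278 CPM of airway markers, against 104 in animal 12 of T and at most 2.39 in the others.

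The formula of the deposited log2 values is not given in the sources used here. Their offset from log2 CPM followed the log2 exon length of the genes, with a Pearson's r of 0.79 across 13372 genes, so that they were read as values scaled for length. On that scale the members with the highest levels over the 9 libraries were Aldoa (10.31), Gapdh (10.05), Ldhb (9.66) and Eno3 (9.66). These are the muscle aldolase, the dehydrogenase of the middle of glycolysis, the heart form of lactate dehydrogenase and the muscle enolase. The insulin-responsive transporter Slc2a4, at 7.27, stood far above the basal transporter Slc2a1, at 2.71. Slc16a3, the lactate exporter Mct4 of glycolytic cells, was the lowest member at −0.17. The median coefficient of variation of the members between the animals of S was 5.45%, against 8.54% in T and 11.9% in A + T. For 6 of the 48 members it was highest in S, and Pdk4 was the most variable of them there, at 74.2%.

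In T vs. S, 9 of the 48 members passed an adjusted P-value under 0.05 in edgeR's quasi-likelihood test. Below, each log2 fold change is given with its standard error (SE) from this fit, and a leave-one-out fit is the same fit without 1 of the 9 animals. The 7 that were higher in T were Pdk4, Slc2a1, Phka1, Pygb, Ldha, Pdp1 and Pdk1, and the 2 that were lower were Phkg1 and Pdhb. Over all genes tested, 10.3% were higher and 11% were lower at that threshold, which are the shares to set beside 7 and 2 of 48. Under upper-quartile scaling the split was 6 higher and 5 lower, and under scaling by library totals all 4 called members were higher. With the study's thresholds, an unadjusted P below 0.05 together with at least a 1.5-fold change, 4 members were counted, all higher (Pdk4, Slc2a1, Phka1 and Pygb), against 14.2% of all genes in either direction. The median log2 fold change of the members was −0.017, and 44 of the 48 (91.7%) lay within 0.5 of no change, as did 77.9% of all genes. At an unadjusted P-value under 0.05, 17 of the 48 members counted, against 35.4% of all genes. Pdk4 had the largest change, at 3.00.

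In A + T vs. T, 4 members were called, and all 4 were lower in A + T: Phka1, Pygb, Ldha and Gpi1. Of all genes tested, 2.79% were lower and 3.09% were higher. The count of 0 higher members came from edgeR. At an unadjusted P-value under 0.05, 5 members were higher, beside 11.8% of all genes, limma-voom called 0 and DESeq2 called 1. In the lower direction 15 of the 48 members counted at the unadjusted threshold, beside 1411 of the 13364 genes. All other DESeq2 calls among the members were lower. The study's thresholds counted Phka1 as lower and Slc16a3 as higher, against 8.11% of all genes in either direction. The median log2 fold change of the members was −0.068. Both T vs. S and the comparison of A + T with T rest on the same 3 T libraries, so a T library that is high for a member raises the one and lowers the other.

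In A + T vs. S, Pdk4, Pdp2 and Pfkfb1 were called, all higher in A + T, beside 4.67% of all genes called higher and 3.64% called lower. No member was called lower by edgeR, although 12 were lower at an unadjusted P-value under 0.05, beside 12.5% of all genes. DESeq2 called 6 lower and limma-voom 1. The study's thresholds counted 4 members, these 3 and Slc16a3, against 8.91% of all genes. The median log2 fold change was −0.10. Without animal 3 of S no member was called, Pdk4 being then at an adjusted P of 0.0555. This comparison uses no T library, and when the T libraries were also left out of the fit, 2 members were called. At an unadjusted P-value under 0.05, 22.4% of all genes counted in A + T vs. T and 26.1% in A + T vs. S in either direction. These shares, and the 35.4% of T vs. S, stand beside the unadjusted counts given below for single roles.

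**Figure D1:**
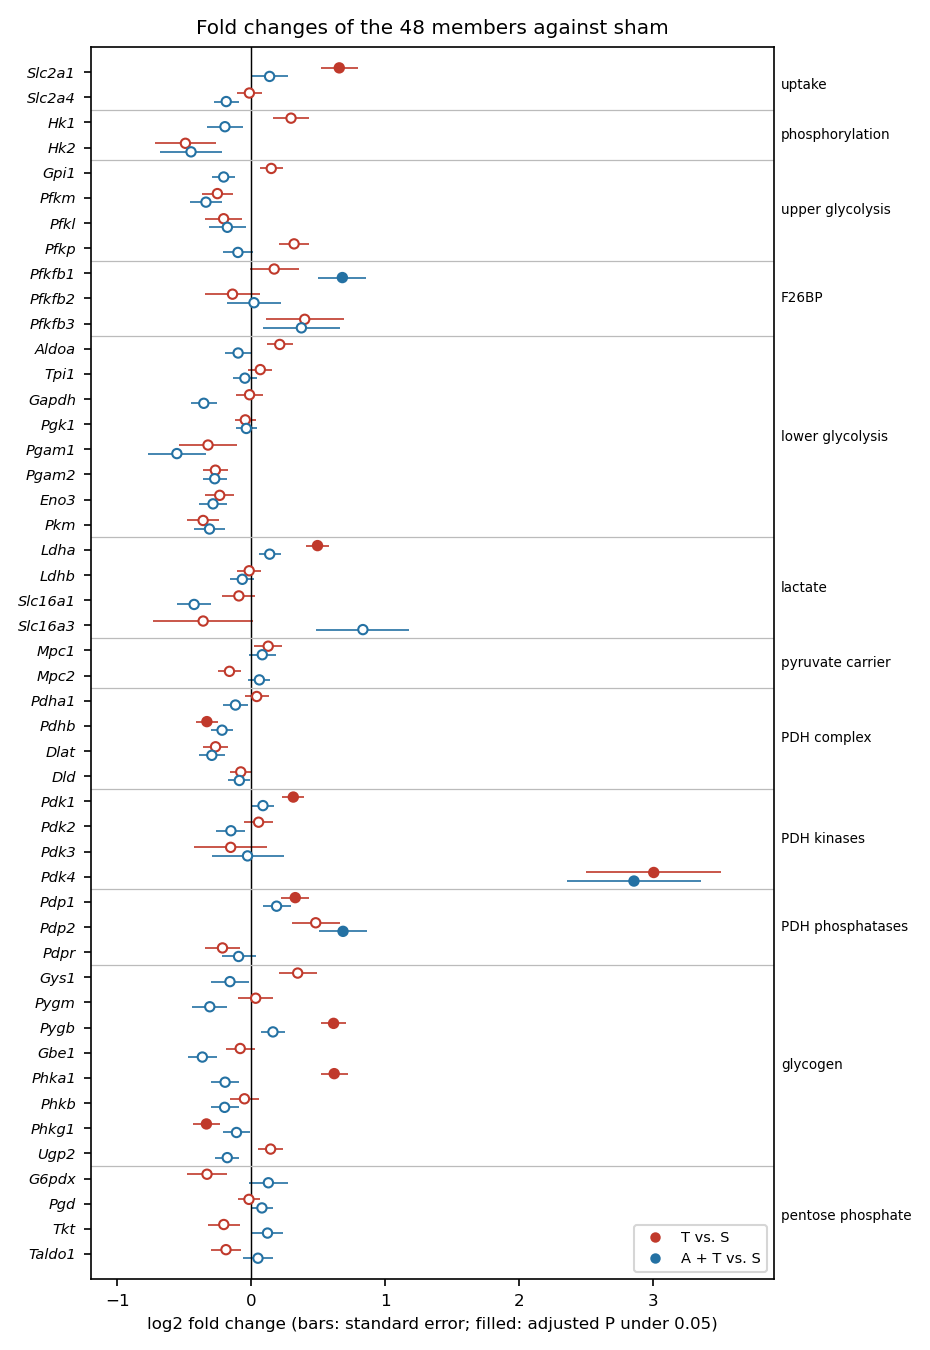
Log2 fold change of each of the 48 members in T vs. S (red) and A + T vs. S (blue), by role, with its standard error from edgeR. Filled points passed an adjusted P-value under 0.05, most points lie within 0.5 of no change, and Pdk4 lies near 3 in both comparisons.

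The transporters behaved differently. Slc2a1 (chromosome 4, 119108711 to 119137983, plus strand of GRCm38) encodes Glut1, which carries basal glucose uptake, and its libraries held 13.0, 13.9 and 15.4 CPM in S hearts, 18.8, 24.5 and 23.4 in T hearts and 17.1, 16.4 and 13.0 in A + T hearts. All 3 hearts of T lay above every heart of S and of A + T, whereas S and A + T overlapped. The log2 fold change was 0.66 (SE 0.14, adjusted P = 0.00746) in T vs. S and −0.52 (SE 0.14, adjusted P = 0.0512) in A + T vs. T. The latter missed the threshold in edgeR, although DESeq2 called it. Slc2a1 is also a gene of endothelial cells, whose summed markers were lower in T than in S. Which cells carried the change of Slc2a1 was not tested. Slc2a4 encodes Glut4, the transporter that insulin brings to the cell surface, and was steady between S and T. It held 464, 456 and 458 CPM in S hearts, 464, 451 and 449 in T hearts and 433, 430.4 and 348 in A + T hearts. S and T overlapped. All hearts of A + T lay below every heart of S and T, without passing the test, and animal 22 alone lay far below the others. The log2 fold change was −0.015 (adjusted P = 0.927) in T vs. S and −0.19 (adjusted P = 0.229) in A + T vs. S.

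Neither hexokinase passed the test in any comparison with edgeR or limma-voom, and DESeq2 called Hk1 in A + T vs. T. At an unadjusted P-value under 0.05, 1 of them counted in T vs. S and 1 in A + T vs. T. Hk1, the form bound to mitochondria in most tissues, held 395, 332 and 349 CPM in S hearts, 439.8, 431 and 451 in T hearts and 356, 338 and 244 in A + T hearts. T lay above both other groups without overlap, and animal 22 was the lowest. The log2 fold changes were 0.30 (adjusted P = 0.135) in T vs. S and −0.49 (adjusted P = 0.0553) in A + T vs. T. Hk2, the insulin-inducible hexokinase of muscle, averaged 361 ± 14.2 CPM in S hearts, 257 ± 52.0 in T hearts and 264 ± 89.5 in A + T hearts (SD, n = 3), with the spread in both other groups several times that of S. Its log2 fold change of −0.49 (adjusted P = 0.151) in T vs. S was the lowest of all members there.

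In the upper steps of glycolysis, Pfkm, the muscle subunit of phosphofructokinase that commits sugar to the pathway, was the most abundant member. It held 1284, 1277 and 1243 CPM in S hearts, 1165, 965 and 1061 in T hearts and 1111, 1066 and 830.2 in A + T hearts. Every heart of T and A + T lay below every heart of S, but the log2 fold changes of −0.25 (adjusted P = 0.153) and −0.34 (adjusted P = 0.104) against S did not pass in edgeR. DESeq2 called Pfkm in A + T vs. S. The platelet subunit Pfkp was measured at 178, 223 and 166 CPM on average in S, T and A + T, and its log2 fold change in T vs. S was 0.32 (adjusted P = 0.0688). It was not called by edgeR, whereas DESeq2 called it in T vs. S and in A + T vs. T. The liver subunit Pfkl did not pass in either tool (−0.21, adjusted P = 0.324 in edgeR, in T vs. S). Gpi1, the isomerase between hexokinase and phosphofructokinase, held 618, 575 and 590.1 CPM in S hearts, 710.3, 627 and 638 in T hearts and 533, 537 and 475 in A + T hearts. The hearts of A + T were below those of T without overlap, with a log2 fold change of −0.36 (SE 0.087, adjusted P = 0.0416), and this call was lost in all 9 leave-one-out fits.

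The Pfkfb enzymes make and break fructose 2,6-bisphosphate, the activator of phosphofructokinase. Pfkfb1, the form known from liver and muscle, was scarce, with 4.26, 5.94 and 6.73 CPM in S hearts, 6.63, 6.66 and 5.61 in T hearts and 8.10, 9.05 and 9.86 in A + T hearts. All hearts of A + T exceeded those of the other groups, and S and T overlapped. Its change in A + T vs. S was 0.68 (SE 0.18, adjusted P = 0.0436) on the log2 scale, and the call held in 2 of 9 leave-one-out fits. Pfkfb2, the heart form and the most abundant of them, held 175, 179 and 183 CPM in S hearts, 172, 125 and 191 in T hearts and 212, 210.1 and 122 in A + T hearts. Animals 12 and 22 were low within groups whose other hearts were close to S or above it. The log2 fold changes of Pfkfb2 were −0.14 (adjusted P = 0.658) and 0.020 (adjusted P = 0.963) against S, and those of Pfkfb3, the inducible form, were 0.40 (adjusted P = 0.358) and 0.37 (adjusted P = 0.445).

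None of the 8 measured genes of the lower steps was called in any comparison by edgeR. At an unadjusted P-value under 0.05, 2 of them counted in T vs. S, 2 in A + T vs. T and 5 in A + T vs. S, against the 35.4%, 22.4% and 26.1% of all genes. In the last of these the 8 lay at a median of −0.28 on the log2 scale. DESeq2 called 2 of the 8 in each comparison, and limma-voom called 1 in T vs. S and 1 in A + T vs. S. Gapdh, Pgam1 and Ldha have near-identical processed copies in the mouse genome, and reads shared with these may be lost or split in counting. Aldoa, the aldolase that splits the sugar, held 2287, 2396 and 2145 CPM in S hearts, 2741, 2445 and 2721 in T hearts and 2194, 2238 and 1944 in A + T hearts. T lay above S and above A + T without overlap, by a log2 fold change of 0.21 (adjusted P = 0.143) against S, and A + T overlapped S. Gapdh, often used as a reference gene, averaged 1740.1 ± 116 CPM in S hearts, 1724 ± 173 in T hearts and 1361 ± 38.9 in A + T hearts (SD, n = 3). All 3 hearts of A + T were below all others, and their change against S was −0.35 (SE 0.10, adjusted P = 0.0509) on the log2 scale. Pkm, the pyruvate kinase that ends the pathway, had log2 fold changes of −0.36 (adjusted P = 0.0538) in T vs. S and −0.31 (adjusted P = 0.127) in A + T vs. S. Eno3, at −0.24 (adjusted P = 0.142) and −0.29 (adjusted P = 0.123), and the muscle phosphoglycerate mutase Pgam2, at −0.27 (adjusted P = 0.0595) and −0.27 (adjusted P = 0.0903), were likewise below S without passing. Pgam1 was uneven within T, with 14.1, 12.01 and 24.9 CPM in animals 11, 12 and 15, and did not pass (−0.32, adjusted P = 0.311, in T vs. S). Tpi1 and Pgk1 stayed close to S, with log2 fold changes of 0.067 (adjusted P = 0.633) and −0.045 (adjusted P = 0.712) in T vs. S.

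The genes of lactate exchange separated by form. Ldha, the lactate dehydrogenase subunit typical of glycolytic tissue, held 647, 696 and 653 CPM in S hearts, 996, 881 and 932 in T hearts and 758, 697 and 739 in A + T hearts. T lay above all other hearts, and the lowest heart of A + T lay just above the highest of S. The log2 fold change was 0.49 (SE 0.083, adjusted P = 0.00261) in T vs. S, −0.36 (SE 0.083, adjusted P = 0.0338) in A + T vs. T and 0.14 (SE 0.082, adjusted P = 0.321) in A + T vs. S. The call in T vs. S held in all 9 leave-one-out fits, and that in A + T vs. T in 2 of the 9. Ldhb, the heart subunit, held 1036, 1148 and 1071 CPM in S hearts, 1154, 979 and 1086 in T hearts and 1045, 1063 and 998 in A + T hearts. Its groups overlapped in every comparison, with a log2 fold change of −0.016 (adjusted P = 0.918) in T vs. S. Slc16a1, the lactate transporter Mct1, was lower in every heart of A + T than in S, without passing in edgeR (−0.43, adjusted P = 0.0597), although DESeq2 called it. Slc16a3 held only 1.55, 1.52 and 3.04 CPM in S hearts, 1.43, 1.66 and 1.59 in T hearts and 2.29, 3.30 and 5.114 in A + T hearts, and its log2 fold change of 1.19 (adjusted P = 0.0803) in A + T vs. T did not pass in edgeR, although DESeq2 called it.

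The promoter of Ldha is printed because Ldha was the called member whose start region holds the most copies of CACGTG, the E-box letters that factors of the Myc, HIF and ChREBP families recognise. Windows of 300 bases, from 250 before to 50 after a RefSeq start, were searched on both strands, which for this palindrome give the same positions. Of 32851 windows of all genes, 7.15% held CACGTG, and of the 70 windows found for the members 8 did, those of Ldha, Pdk2, Pdp2, Pdpr, Pfkfb2, Pfkfb3, Pfkm and Slc16a1. Of these 8 genes, Ldha was the 1 called in T vs. S, beside 9 of the 48 members and 21.2% of all genes. Pdp2, another of the 8, was called in A + T vs. S. A further Ldha window, at another RefSeq start (chr7:46846832-46847131), holds no copy of CACGTG. The window with the copies, on the plus strand of chr7:46845554-46845853 (GRCm38.p6), follows. Both copies are in capitals and start 145 and 48 bases before its RefSeq start. GENCODE places the gene between 46841475 and 46855627, so the window lies inside the annotated gene.
Ldha: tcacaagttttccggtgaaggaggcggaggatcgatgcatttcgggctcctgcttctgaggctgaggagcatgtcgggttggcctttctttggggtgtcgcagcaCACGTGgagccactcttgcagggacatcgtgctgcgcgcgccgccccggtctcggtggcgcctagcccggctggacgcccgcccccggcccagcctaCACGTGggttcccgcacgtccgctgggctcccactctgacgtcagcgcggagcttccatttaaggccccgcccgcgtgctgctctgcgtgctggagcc

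The mitochondrial pyruvate carrier was not called in any comparison by edgeR, DESeq2 or limma-voom. At an unadjusted P-value under 0.05, 1 subunit counted, in A + T vs. T. Mpc2, its more abundant subunit, held 229.6, 254 and 233 CPM in S hearts, 215, 195 and 230.1 in T hearts and 249.3, 252 and 245 in A + T hearts. T and S overlapped, and A + T lay above T, with a log2 fold change of 0.22 (adjusted P = 0.142). Mpc1 had a log2 fold change of 0.13 (adjusted P = 0.417) in T vs. S.

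In the PDH complex, Pdha1, the catalytic subunit that the kinases phosphorylate, held 1374, 1519 and 1444 CPM in S hearts, 1568, 1407 and 1483 in T hearts and 1368, 1406 and 1221 in A + T hearts. S overlapped both other groups, and the log2 fold change was 0.040 (adjusted P = 0.788) in T vs. S. Pdhb, its partner subunit, held 487, 536 and 489.9 CPM in S hearts, 437, 385 and 379.7 in T hearts and 429, 444 and 427 in A + T hearts and was lower in every heart of T than in any of S. Its log2 fold change was −0.33 (SE 0.084, adjusted P = 0.0185) in T vs. S and −0.22 (SE 0.084, adjusted P = 0.13) in A + T vs. S, and the call held in 6 of 9 leave-one-out fits. Dlat, the acetyltransferase core, was below S by a similar size without passing in edgeR (−0.27, adjusted P = 0.0708, in T vs. S). DESeq2 called Dlat in T vs. S and in A + T vs. S. Dld did not pass (−0.079, adjusted P = 0.527, in T vs. S).

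Pdk4, the PDH kinase that fasting and fatty acids are known to induce in heart and muscle, showed the largest change of the members against S. Its libraries held 126, 259 and 597 CPM in S hearts, 3867, 1558 and 2436 in T hearts and 2076, 2465 and 2556 in A + T hearts. The lowest heart of T lay above the highest heart of S, the hearts of A + T lay within the range of T, and within S the highest animal exceeded the lowest several times over. The means were 327 ± 243 CPM in S hearts, 2620.4 ± 1166 in T hearts and 2366 ± 255 in A + T hearts (SD, n = 3). The fitted change was 8.01-fold in T vs. S, a log2 fold change of 3.00 (SE 0.50, adjusted P = 0.00263), and 7.23-fold in A + T vs. S, a log2 fold change of 2.85 (SE 0.50, adjusted P = 0.0102). Between A + T and T it came to −0.15 (SE 0.47, adjusted P = 0.886), a difference too small to detect beside the spread of the animals. It ranked 15 of 13364 genes by log2 fold change in T vs. S and 32 in A + T vs. S. The rise in T vs. S was called in all 9 leave-one-out fits, with log2 fold changes from 2.61 to 3.77. When the mice were last fed is not given in the sources used here.

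The other kinases moved less. Pdk1, which hypoxia is known to induce, held 466, 453 and 422 CPM in S hearts, 570.3, 529 and 567 in T hearts and 460.2, 507 and 457 in A + T hearts, higher in T than in S and A + T without overlap. Its log2 fold change was 0.31 (SE 0.081, adjusted P = 0.0214) in T vs. S and −0.23 (SE 0.081, adjusted P = 0.131) in A + T vs. T, and the first held in 5 of 9 leave-one-out fits. DESeq2 also called Pdk1 in A + T vs. T. Pdk2, the widely expressed kinase, was at 0.054 (adjusted P = 0.757) in T vs. S, and the scarce Pdk3 at −0.15 (adjusted P = 0.723).

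The Pdk4 start region is shown because this gene carried the largest change of the group. It spans 5483351 to 5496309 on chromosome 6 (GRCm38, minus strand), and the window crosses its start. The window on the minus strand of chr6:5496229-5496528 (GRCm38.p6, RefSeq) was searched on both strands for TGTTTAC, a FOXO core held by 3.65% of all windows, for AGAACA, a glucocorticoid receptor half-site held by 19.0% of them, for TNAAGGTCA, an extended ERR half-site held by 1.28%, and for CACGTG. None of these letter strings lies in it, and sites farther away were not searched. The window is therefore in lower case throughout.
Pdk4: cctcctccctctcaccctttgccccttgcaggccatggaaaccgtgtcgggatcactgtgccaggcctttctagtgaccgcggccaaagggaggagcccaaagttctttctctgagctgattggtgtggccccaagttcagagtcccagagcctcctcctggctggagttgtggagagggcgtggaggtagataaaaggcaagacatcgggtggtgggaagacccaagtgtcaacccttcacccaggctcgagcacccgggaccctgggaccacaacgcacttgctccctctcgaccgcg

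The phosphatases that oppose the kinases were also higher where they were called. Pdp1, the calcium-stimulated form, held 39.3, 44.4 and 39.4 CPM in S hearts, 49.7, 59.7 and 44.8 in T hearts and 47.4, 46.3 and 46.6 in A + T hearts and had a log2 fold change of 0.33 (SE 0.10, adjusted P = 0.0473) in T vs. S, a call kept in 2 of 9 leave-one-out fits. Pdp2, the insulin-sensitive form, held 15.2, 18.3 and 22.3 CPM in S hearts, 28.3, 22.8 and 26.6 in T hearts and 33.3, 33.8 and 22.3 in A + T hearts. All hearts of T exceeded all of S, and animal 22 of A + T lay just above the highest heart of S while the other A + T hearts were the highest of all. The log2 fold change of Pdp2 was 0.48 (SE 0.18, adjusted P = 0.0834) in T vs. S and 0.68 (SE 0.18, adjusted P = 0.0433) in A + T vs. S, the latter kept in 3 of the 9 fits. Pdpr, the regulatory subunit, held 86.3, 84.5 and 81.3 CPM in S hearts, 72.4, 70.7 and 74.1 in T hearts and 82.1, 93.0 and 60.9 in A + T hearts, with T below S without overlap and A + T spread across both, and did not pass (−0.22, adjusted P = 0.255).

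**Figure D2:**
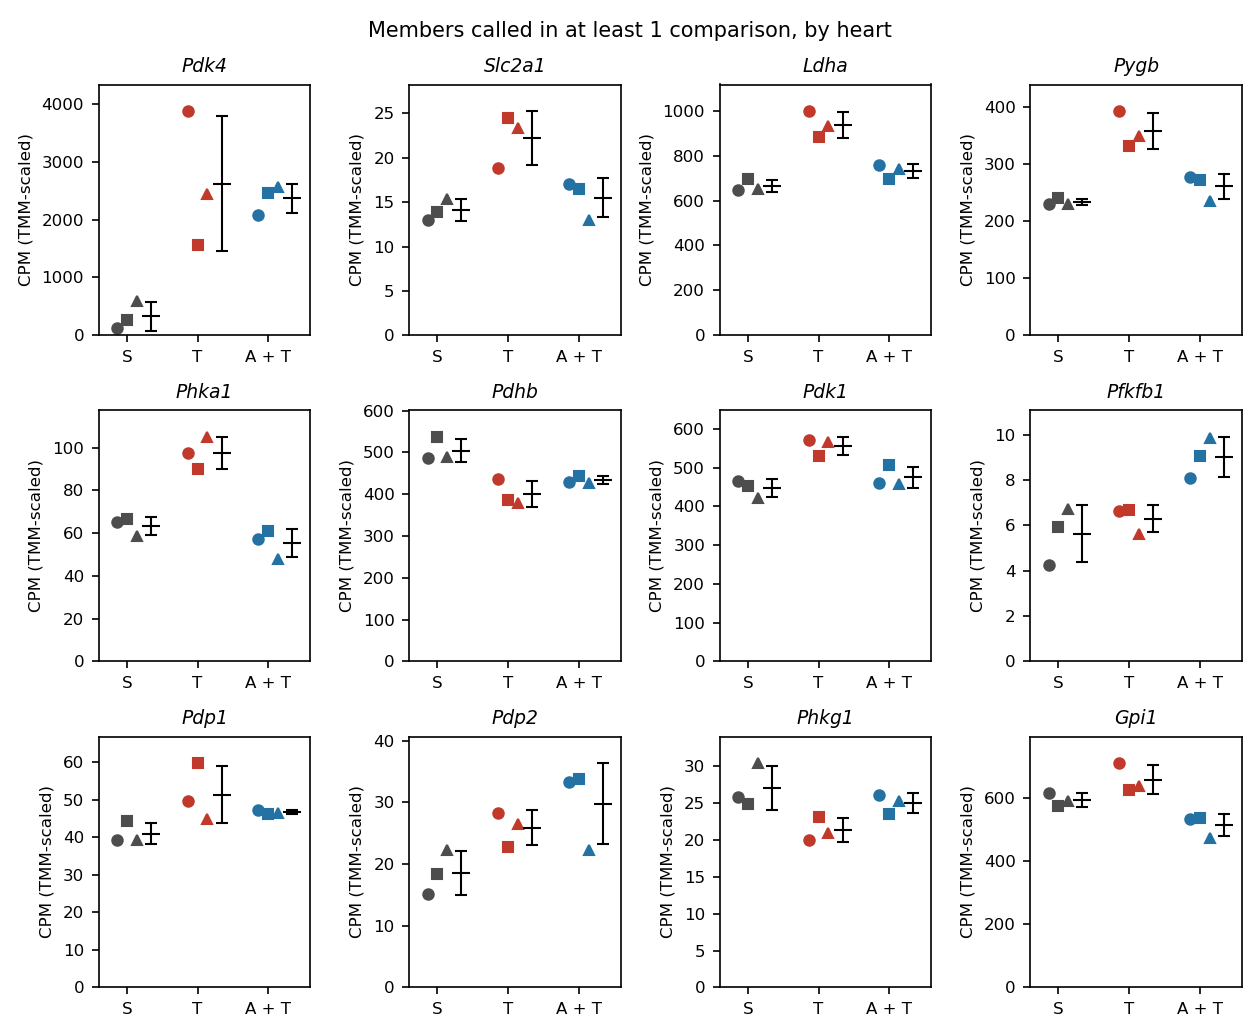
CPM of the 12 members called in at least 1 comparison, 1 point per heart (circle, square and triangle for the animals of a group in order of number), with the mean and SD of the 3 hearts beside them. Pdk4 is high in all hearts of T and A + T, whereas Slc2a1, Ldha, Pygb and Phka1 are highest in T.

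Of the 8 glycogen genes, 2 were called higher and 1 lower in T vs. S, and 2 were called lower in A + T vs. T. Over all genes, 21.2% and 5.88% were called in these comparisons. At an unadjusted P-value under 0.05, 4 of the 8 counted in T vs. S, 6 in A + T vs. T, all lower, and 2 in A + T vs. S. The shares of all genes there were 35.4%, 22.4% and 26.1%. In A + T vs. T, DESeq2 called 4 of them, Gys1, Pygb, Phka1 and Ugp2. Pygb (chromosome 2, 150786735 to 150831758, plus strand of GRCm38), the brain form of glycogen phosphorylase, which breaks glycogen down, held 231, 241 and 229.8 CPM in S hearts, 393, 332 and 349 in T hearts and 277, 272 and 236 in A + T hearts. The hearts of T lay above all others, while the lowest heart of A + T lay within S. The log2 fold change was 0.61 (SE 0.092, adjusted P = 0.00155) in T vs. S and −0.45 (SE 0.092, adjusted P = 0.0226) in A + T vs. T, held in 9 and 8 of 9 leave-one-out fits. Pygm, the muscle form and the most abundant glycogen gene, held 1455, 1296 and 1309 CPM in S hearts, 1547, 1286 and 1319 in T hearts and 1163, 1229 and 884 in A + T hearts. S and T overlapped and A + T lay below both, without passing (0.032, adjusted P = 0.886, in T vs. S, and −0.34, adjusted P = 0.155, in A + T vs. T).

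Phka1 (chromosome X, 102513975 to 102644246, minus strand), the muscle regulatory subunit of the kinase that activates phosphorylase, held 65.2, 66.4 and 58.7 CPM in S hearts, 97.4, 90.2 and 105 in T hearts and 57.4, 60.8 and 48.1 in A + T hearts. T lay far above S and A + T, which overlapped. The log2 fold change was 0.62 (SE 0.10, adjusted P = 0.00237) in T vs. S and −0.81 (SE 0.10, adjusted P = 0.00342) in A + T vs. T, and both calls held in all 9 leave-one-out fits. The subunits of this kinase did not move as 1 unit. Phkg1, its catalytic subunit, held 25.8, 24.9 and 30.4 CPM in S hearts, 20.01, 23.1 and 20.96 in T hearts and 26.2, 23.5 and 25.3 in A + T hearts and was lower in T, with a log2 fold change of −0.34 (SE 0.10, adjusted P = 0.0381) that held in 5 of the 9 fits. Phkb, the other regulatory subunit, was at −0.051 (adjusted P = 0.763) in T vs. S. Gys1, the muscle glycogen synthase, was measured at 165, 209 and 147 CPM on average in S, T and A + T, with log2 fold changes of 0.35 (adjusted P = 0.11) in T vs. S and −0.51 (adjusted P = 0.0651) in A + T vs. T. Ugp2, which makes the sugar nucleotide for glycogen, was at 0.14 (adjusted P = 0.288) and −0.32 (adjusted P = 0.0646) in the same comparisons, and the branching enzyme Gbe1 at −0.083 (adjusted P = 0.62) and −0.28 (adjusted P = 0.155).

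No member of the pentose phosphate pathway was called in any comparison by edgeR, DESeq2 or limma-voom. At an unadjusted P-value under 0.05, 1 of the 4 counted in T vs. S and 2 in A + T vs. T. Taldo1, a transaldolase and the most abundant of the 4, held 67.4, 76.3 and 75.6 CPM in S hearts, 68.2, 61.3 and 62.8 in T hearts and 69.4, 68.0 and 89.4 in A + T hearts, and all groups overlapped. G6pdx, the dehydrogenase that opens the pathway, averaged 11.3 ± 0.951 CPM in S hearts, 8.99 ± 0.869 in T hearts and 12.4 ± 2.16 in A + T hearts (SD, n = 3), with log2 fold changes of −0.33 (adjusted P = 0.135) in T vs. S and 0.46 (adjusted P = 0.0966) in A + T vs. T. Tkt was at −0.21 (adjusted P = 0.242) and 0.33 (adjusted P = 0.135), and Pgd at −0.018 (adjusted P = 0.902) and 0.10 (adjusted P = 0.546).

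**Figure D3:**
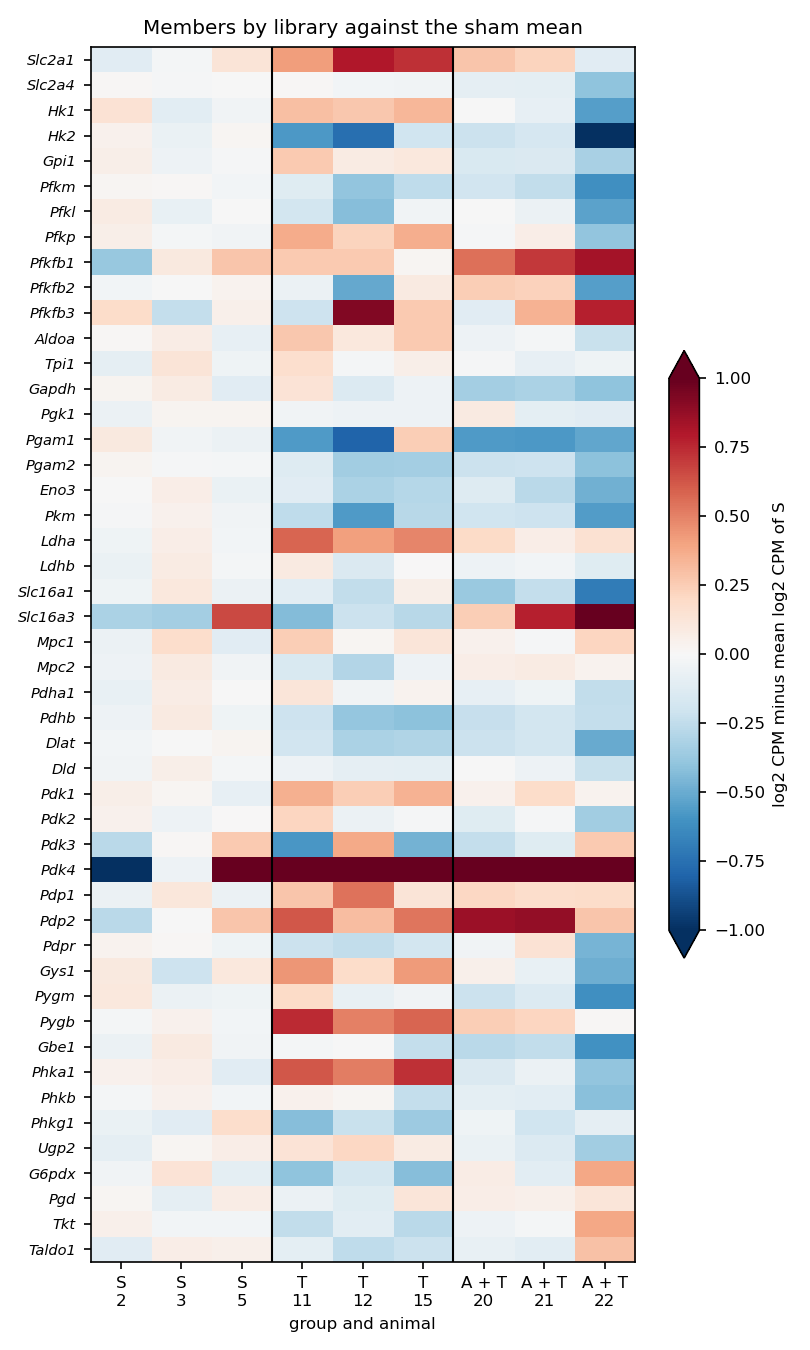
Log2 CPM of each member (rows, by role) in each heart (columns) minus the mean of the 3 S hearts; colours end at 1 above and below, and Pdk4 exceeds them. Red bands run across T for Slc2a1, Ldha, Pygb and Phka1, and the column of animal 22 is the bluest.

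Ratios of genes that serve the same step were taken within each library, which removes its scaling. For these single values an exact two-sided permutation test with 3 against 3 animals cannot give a P-value under 0.1. Ldha over Ldhb on the log2 scale was −0.68, −0.72 and −0.71 in S hearts, −0.21, −0.15 and −0.22 in T hearts and −0.46, −0.61 and −0.43 in A + T hearts. The 3 groups did not overlap, and A + T lay between the others (P = 0.1 for each of the 3 comparisons, exact permutation test). Pfkp over Pfkm stood in the same order, with −2.83 ± 0.034 in S, −2.59 ± 0.073 in A + T and −2.25 ± 0.072 in T (SD, n = 3), also without overlap. Slc2a1 over Slc2a4 was −5.03 ± 0.13 in S, −4.71 ± 0.040 in A + T and −4.36 ± 0.23 in T (SD, n = 3), again without overlap. Pygb over Pygm was −2.53 ± 0.11 in S and −1.95 ± 0.030 in T, and A + T, at −2.05 ± 0.14, overlapped T (SD, n = 3). In these 4 pairs every heart of T had a larger share of the first and less abundant gene than any heart of S. Of these first genes, Slc2a1, Ldha and Pygb were already called higher in T vs. S from the same counts. Hk1 over Hk2 was −0.011 ± 0.085 in S hearts, 0.80 ± 0.25 in T hearts and 0.29 ± 0.28 in A + T hearts (SD, n = 3), and A + T overlapped both S and T. Pgam1 over Pgam2 did not separate T from S, at −4.64 ± 0.058 and −4.75 ± 0.60 (SD, n = 3; P = 1, exact permutation test).

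Among regulators of PDH, 2 ratios were computed. Pdk4 over Pdk2 on the log2 scale was −2.29, −1.15 and 0.0030 in S hearts, 2.48, 1.44 and 2.05 in T hearts and 1.92, 2.06 and 2.45 in A + T hearts. Every heart of T and A + T exceeded every heart of S, and T and A + T overlapped (P = 0.1 against S for both and P = 0.8 between them, exact permutation test). Pdk4 over the opposing phosphatase gene Pdp2 was likewise lower in S than in both other groups, with 3.87 ± 0.85 in S hearts, 6.57 ± 0.50 in T hearts and 6.33 ± 0.46 in A + T hearts (SD, n = 3).

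**Figure D4:**
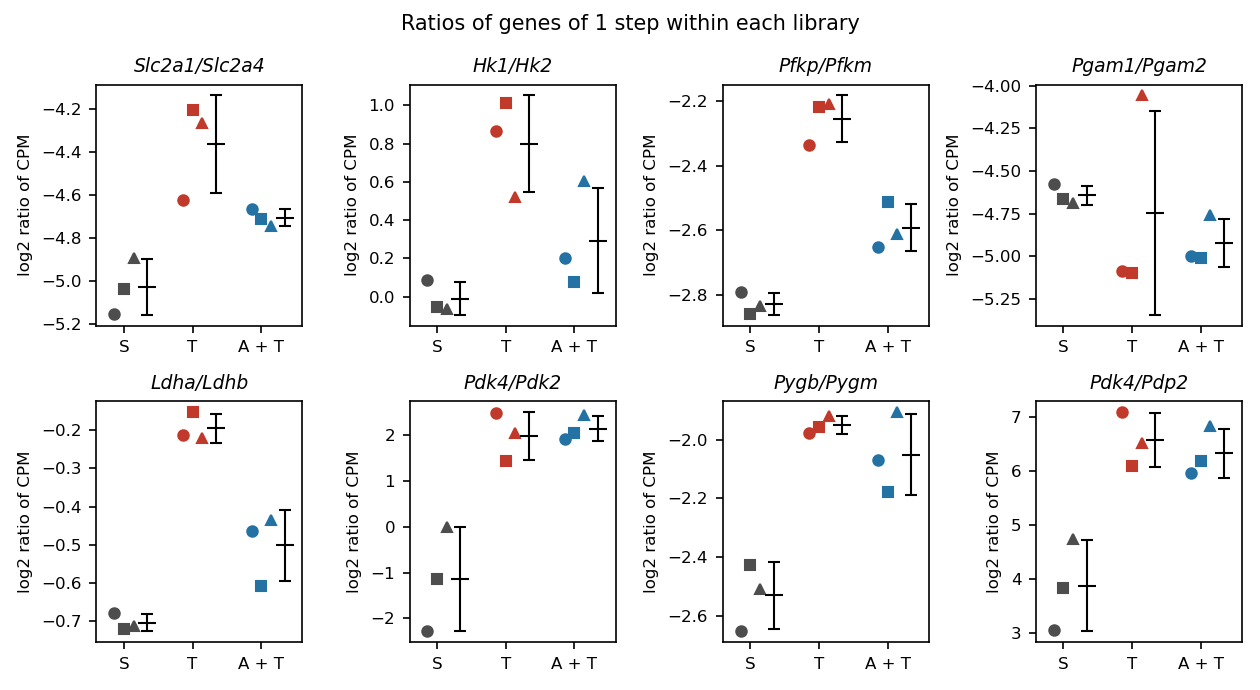
Log2 ratio of CPM of 2 genes within each heart, 1 point per heart, with the mean and SD of the 3 hearts. Ldha over Ldhb, Pfkp over Pfkm and Slc2a1 over Slc2a4 stand in the order S, A + T and T without overlap, and both Pdk4 ratios are higher in T and A + T than in S.

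A further 65 genes of glucose handling outside the group were tested. In T vs. S, 5 of them were higher and 10 lower at an adjusted P under 0.05 (edgeR), in A + T vs. T 2 and 2, and in A + T vs. S 3 and 5. In either direction these make 15, 4 and 8 of the 65, beside 21.2%, 5.88% and 8.31% of all genes. Txnip, which restrains glucose uptake and responds to cellular glucose, held 287, 450.4 and 529 CPM in S hearts, 1534, 1249 and 1257 in T hearts and 1530.2, 1347 and 1245 in A + T hearts. All hearts of T and A + T lay well above S and overlapped each other, with log2 fold changes of 1.67 (SE 0.20, adjusted P = 0.00045) in T vs. S and 1.70 (SE 0.20, adjusted P = 0.00215) in A + T vs. S. Its relative Arrdc4 was at 0.80 (adjusted P = 0.0329) in A + T vs. T. Klf15, a glucocorticoid-responsive factor of cardiac metabolism, was at 1.02 (SE 0.18, adjusted P = 0.0034) in T vs. S and −0.76 (SE 0.18, adjusted P = 0.0367) in A + T vs. T.

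Genes that fell with a fold change of at least 1.5 were glycogen and sugar genes of several kinds. Ppp1r3c, which brings a phosphatase to glycogen and promotes its storage, held 297, 314 and 245 CPM in S hearts, 117, 98.98 and 133 in T hearts and 136, 139 and 102 in A + T hearts. All hearts of T and A + T were below S, with log2 fold changes of −1.30 (SE 0.15, adjusted P = 0.000411) in T vs. S and −1.19 (SE 0.15, adjusted P = 0.00286) in A + T vs. S. Nhlrc1, the ubiquitin ligase malin of glycogen quality control, was at −0.69 (adjusted P = 0.0449), the transporter Slc2a10 at −0.87 (adjusted P = 0.0372) and the pentose phosphate isomerase Rpia at −0.59 (adjusted P = 0.0156) in T vs. S. Pygl, the liver glycogen phosphorylase, was the reverse case, higher in A + T vs. S with a log2 fold change of 0.79 (SE 0.19, adjusted P = 0.0309).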

How the data were processed

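mRNA sequencing counts of 9 mouse hearts, 3 from each group, were used, with groups and animal numbers taken from the labels. The authors aligned paired 75-base reads to mm10 with STAR, counted them on genes, and deposited raw counts per gene. They also deposited log2 normalized values, which differ from log2 CPM by a constant for each gene. Blank lines of the table (3443) were dropped.

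A gene was dropped when more than 4 libraries had a CPM below 0.5, which took out 526 of 13890. The counts were tested with edgeR 4.0.16 (R 4.3.3), using TMM scaling, the quasi-likelihood test and all 9 libraries in 1 fit, and P-values were adjusted by Benjamini-Hochberg over 13364 genes. The standard error is the log2 fold change over the square root of F. Only the edgeR step of T vs. S was tested on simulated data, and the outcome is not given here. The other tools, the ratios and the other comparisons were not tested in this way. In the libraries, 3 counts correspond to 0.152 to 0.242 CPM by library totals. The P-values of edgeR set a group difference against the spread between animals. That spread is estimated over all 9 libraries, with information shared between genes.

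Values in every library are given for members called with a fold change of at least 1.5 and for the most abundant member of each role. Other called members were added after their values were seen. Some genes outside the group that met the rule are not reported here. The members and lists were chosen with earlier results of these data known. Alternatives were DESeq2 1.42.0, limma-voom (limma 3.58.1), limma on the deposited values, other scalings, filters and thresholds, fits of only the groups compared, and each animal left out. Coordinates and promoter windows follow RefSeq and GENCODE on GRCm38, and 48 of 50 members had a window. Ratios with Aldoc and Eno1 were planned and not computed. Figures were drawn with matplotlib 3.10.9.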

Additional observations from a re-analysis of the deposited data

How the results depend on the processing

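Few members are called, so their number moved with the setting. In T vs. S (9 called) it was 17 in a fit of only S and T, 4 with library totals and 14 at an adjusted P under 0.1, and the study's thresholds gave 2 instead of 4 with library totals. In A + T vs. T (4 called) it was 13 with DESeq2, 1 with only both groups, 2 with upper-quartile scaling, 1 with library totals and 13 at an adjusted P under 0.1. In A + T vs. S (3 called) it was 9 with DESeq2, 1 with library totals and 8 at an adjusted P under 0.1. The causes were not tested, apart from the wider threshold. With each animal left out in turn, 6 to 19 members were called in T vs. S (19 without animal 22), 1 to 5 in A + T vs. T (1 without animal 11 and 2 without animals 2, 3, 5, 15 or 20) and 0 to 3 in A + T vs. S (0 without animal 3, 1 without animals 2 or 20). At the study's thresholds these ranges were 3 to 5, 2 to 5 (5 without animal 20) and 1 to 4 (1 without animal 2). The shares of all genes called under these settings are not given here. A move of the members can therefore not be told apart from a move of all genes. The same holds for the counts by DESeq2, limma-voom and other scalings given above.

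No called member turned its direction against S. Small log2 fold changes that did were Pdha1 in T vs. S, −0.0017 with library totals, and Pfkfb2 in A + T vs. S, −0.024 with limma-voom and −0.025 on the deposited log2 values. With an animal left out in turn, the ranges crossed 0 for 11 of the 48 members in T vs. S, 16 in A + T vs. T and 9 in A + T vs. S, and none of these members was called in that comparison. Among the members given in every library by the naming rule, or added because they were called, these were in T vs. S Slc2a4 (−0.030 to 0.0040), Pfkfb2 (−0.26 to 0.016), Ldhb (−0.072 to 0.046), Pdha1 (−0.00047 to 0.078) and Pygm (−0.055 to 0.094), in A + T vs. T Pdk4 (−0.41 to 0.24), Pfkm (−0.17 to 0.031), Ldhb (−0.11 to 0.0041) and Pdpr (−0.017 to 0.27), and in A + T vs. S Pfkfb2 (−0.11 to 0.24), Pdpr (−0.23 to 0.065) and Taldo1 (−0.084 to 0.12). The median over members was also recomputed under each setting, an addition made after seeing the data. No paired analysis was possible because the groups share no animal numbers. The scarce members Slc16a3 and Pdk3 were not called by edgeR, and DESeq2 called Slc16a3 in A + T vs. T.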
